A study of Mus musculus with 13 samples.

Results

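The sites of the glucocorticoid receptor (GR, encoded by Nr3c1) were compared between wild-type and zinc finger mutant mouse embryonic fibroblasts after dexamethasone with lipopolysaccharide. Members of the comparison were all peaks that the authors listed for these cells, 24673 in all: 18953 on the wild-type-specific list, 3533 on the shared list and 2187 on the mutant-specific list. A wild-type peak is one of the wild-type-specific or shared lists and a mutant peak one of the shared or mutant-specific lists, which gives 22486 wild-type and 5720 mutant peaks. The peaks came from 7 of the 13 libraries of the series: 3 wild-type libraries (GR wt/wt) and 4 mutant libraries (GR Zn/Zn). Each peak belonged to the gene that the authors' annotation gave it, and 8636 genes had at least 1 peak.

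Both groups were primary cells of male C57BL/6 embryos, taken at embryonic day 13.5 without head and inner organs and grown for 7 days. Both had received 1 µM dexamethasone (Dex, a synthetic glucocorticoid) for 16 h and 100 ng/µl lipopolysaccharide (LPS, a bacterial cell wall component, dose as labelled) for 3 h. Chromatin was fixed with a protein crosslinker (DSG) and formaldehyde and precipitated with the same commercial GR antibody in every library. The series' design text calls the libraries of a group biological replicates. Per the file names, libraries were merged by genotype and peaks also found in GR knockout cells (2 libraries, same treatment) were removed, so no spread between replicates and no test across samples could be had. The files hold no counts, so the depth is unknown. The names of the merged signal tracks say that these were subsampled, and whether peaks were called before or after that step was not given. A peak that is missing from a list was below the authors' threshold there, and this does not show that the receptor was absent.

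GR is a hormone-activated transcription factor with a ligand-binding domain and a DNA-binding domain built on zinc fingers. As a dimer it contacts glucocorticoid response elements, which are imperfect palindromes, and at inflammatory genes it also meets factors such as NF-kB and AP-1 that LPS signalling activates. The mutation studied here lies in the zinc finger domain, and the comparison asks which sites are still recovered with the antibody when that domain is changed.

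The promoters below show the letters under peaks of each class. They are examples chosen after the values were seen, and no motif shown was confined to 1 class. Each is the stretch of a RefSeq promoter (GRCm38.p6, the assembly called mm10) that lies inside a 200 bp peak, upstream of the gene start, with a motif match in capitals. The glucocorticoid response element was searched as AGAACA and TGTTCT with any 3 bases between them and up to 2 mismatches. It stood in 1.76% of promoters under wild-type-specific peaks, against 1.84% of all promoters. Of its matches inside wild-type-specific peaks 3 are given. The promoter of Gm34455 (chr17:26504348-26504421, minus strand) lies under a peak that the authors gave to Dusp1, and that of Gm33945 (chr10:21573853-21574010, minus strand) was the only match with 1 mismatch. Slc10a6 (chr5:103629404-103629601, minus strand) encodes a sulfated steroid transporter.
Gm34455: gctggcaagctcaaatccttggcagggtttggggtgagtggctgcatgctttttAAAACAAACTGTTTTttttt
Gm33945: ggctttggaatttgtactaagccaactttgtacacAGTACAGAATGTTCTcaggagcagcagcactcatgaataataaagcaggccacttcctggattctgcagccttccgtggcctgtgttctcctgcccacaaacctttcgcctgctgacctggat
Slc10a6: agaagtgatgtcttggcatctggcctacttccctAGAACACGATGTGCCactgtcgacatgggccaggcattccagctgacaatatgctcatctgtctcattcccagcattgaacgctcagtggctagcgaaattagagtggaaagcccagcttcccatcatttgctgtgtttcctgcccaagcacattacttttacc

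Shared peaks lay over NF-kB motifs, searched as GGGA and CC with any 4 bases between them, in the promoters of the cytokine Il6 (chr5:30012998-30013113, plus strand), the chemokine Ccl20 (chr1:83116540-83116739, plus strand) and the lipopeptide receptor Tlr2 (chr3:83841637-83841836, minus strand). Matches inside the peak stood in 14.5% of promoters under shared, 12.2% under wild-type-specific and 10.9% under mutant-specific peaks.
Il6: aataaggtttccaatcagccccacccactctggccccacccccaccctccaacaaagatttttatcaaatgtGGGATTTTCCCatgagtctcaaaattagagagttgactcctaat
Ccl20: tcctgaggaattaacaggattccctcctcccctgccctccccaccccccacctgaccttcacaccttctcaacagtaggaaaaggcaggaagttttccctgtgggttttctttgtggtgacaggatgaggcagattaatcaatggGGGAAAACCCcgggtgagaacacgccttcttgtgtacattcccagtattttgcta
Tlr2: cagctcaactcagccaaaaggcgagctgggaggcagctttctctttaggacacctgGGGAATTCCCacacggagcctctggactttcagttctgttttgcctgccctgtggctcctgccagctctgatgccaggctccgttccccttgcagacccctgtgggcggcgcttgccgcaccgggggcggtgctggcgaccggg

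Promoters with an interferon element, searched as GAAA repeated after any 2 bases, were found under peaks of either genotype. Wild-type-specific peaks lay over it at Socs1, an inhibitor of cytokine signalling (chr16:10785537-10785677, minus strand), and Irgm1, an immunity-related GTPase (chr11:48871421-48871611, minus strand). Mutant-specific peaks lay over it at Tgtp1, a GTPase of the same family (chr11:48992247-48992395, minus strand), and Apol9b, an apolipoprotein L gene (chr15:77728964-77729071, plus strand).
Socs1: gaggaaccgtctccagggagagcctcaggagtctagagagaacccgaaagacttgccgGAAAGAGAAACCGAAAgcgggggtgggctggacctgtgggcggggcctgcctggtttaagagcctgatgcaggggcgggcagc
Irgm1: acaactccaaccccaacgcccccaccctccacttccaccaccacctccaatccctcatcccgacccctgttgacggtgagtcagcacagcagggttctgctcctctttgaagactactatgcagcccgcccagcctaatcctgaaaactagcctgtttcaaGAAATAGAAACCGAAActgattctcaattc
Tgtp1: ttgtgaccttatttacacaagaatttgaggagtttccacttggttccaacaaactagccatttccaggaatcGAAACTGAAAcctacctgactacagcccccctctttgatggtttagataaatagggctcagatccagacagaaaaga
Apol9b: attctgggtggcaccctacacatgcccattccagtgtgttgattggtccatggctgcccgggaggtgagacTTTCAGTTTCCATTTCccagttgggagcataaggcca

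Nr3c1 itself (chromosome 18, 39410545 to 39489776) had 3 peaks in wild type only, 2 in both genotypes and 1 in the mutant only. Peak positions at the receptor's own gene give neither its sequence nor its level and so do not check the genotype labels. All 12 fibroblast markers fixed for the comparison, Col1a1, Thy1, Vim and Pdgfra among them, had a wild-type peak and 11 had a mutant peak. Of the 12 macrophage markers, 1 had a wild-type peak and 2 had a mutant peak (Cd68 and Adgre1). Neuronal markers had a wild-type peak at 7 of 12 genes and a mutant peak at 1, and the corresponding numbers were 7 and 4 for endothelium, 6 and 3 for epithelium, 2 and 1 for skeletal muscle and 2 and 0 for hepatocytes. A peak near a marker gene does not show that the gene is expressed.

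By gene, loss was the commonest outcome. Wild-type peaks were assigned to 8294 genes, of which 5442 (65.6%, exact 95% interval 64.6 to 66.6%) had no mutant peak at all and are called fully lost. Another 1782 genes (21.5%) were partly kept, with at least 1 shared and at least 1 wild-type-specific peak. All wild-type peaks were shared at 598 genes (7.21%), called wholly kept, so 28.7% of wild-type-bound genes kept at least 1 peak. At 472 genes (5.69%) no wild-type peak was shared but mutant-specific peaks were present, and these are called replaced. The mutant list covered 3194 genes, of which 342 (10.7%, interval 9.66 to 11.8%) had no wild-type peak and are called gained. That share was 19.5% when only peaks within 20 kb of a gene start were used, and 3.14% among genes with at least 2 peaks. Of the 2852 genes bound in both genotypes, 1925 had fewer mutant than wild-type peaks, 777 had as many and 150 had more. The intervals cover counting error only.

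The share of genes without a mutant peak fell steeply with the number of wild-type peaks, whereas the share of peaks kept rose from 13.6% to 20.3%. Genes with 1 wild-type peak were fully lost in 3203 of 3925 cases (81.6%), those with 3 in 55.4% and those with 6 to 10 in 26.7% (189 of 709). Of 181 genes with 11 to 20 wild-type peaks 17 (9.39%) were fully lost, and of 31 genes with 21 or more none was, which allows a share of up to 11.2% (exact 95% interval). Counted per peak, the kept share was 13.6% (interval 12.5 to 14.7%) at genes with 1 wild-type peak, 16.5% at genes with 6 to 10 and 20.3% (17.8 to 22.9%) at genes with 21 or more. The fully lost shares of gene lists below therefore also vary with peak number, and the 65.6% of all wild-type-bound genes beside them is not adjusted for it.

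**Figure D1:**
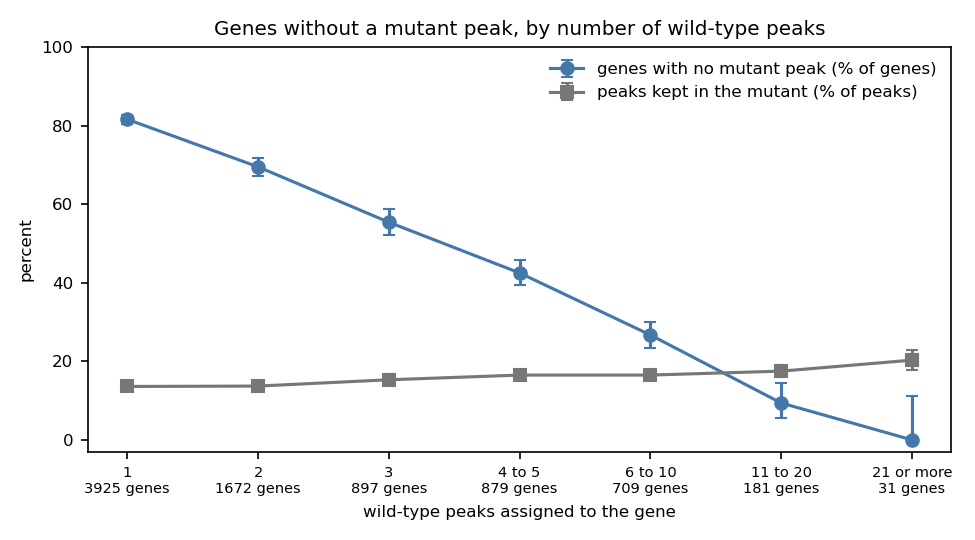
Genes with a wild-type peak are grouped on the horizontal axis by how many they have, with the number of genes beneath. Circles give the percent of these genes with no mutant peak and squares the percent of their wild-type peaks that were shared, with exact 95% intervals as bars. The circles go from 81.6% to 0% while the squares stay between 13.6% and 20.3%.

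The 10 fully lost genes with the most wild-type peaks inside the gene or within 100 kb of its start had 11 to 17 such peaks each, and their totals at any distance follow. Rarb, a retinoic acid receptor (chromosome 14, 16430839 to 17082331), had 18 peaks in wild type and none in the mutant. Nedd9, a scaffold of focal adhesions (chromosome 13, 41309916 to 41487360), and Cubn, an endocytic receptor (chromosome 2, 13276338 to 13491876), had 15 each. Trabd2b, an inhibitor of Wnt proteins, and Rbfox2, a splicing factor, had 13 each. Actn4, an actin crosslinker, Ccbe1, a lymphangiogenesis factor, Lrig1, a negative regulator of growth factor receptors, and Maml3, a Notch coactivator, had 12 each. Dusp1, the phosphatase that switches off MAP kinases and a classic GR target, had 11. Its 11 wild-type-specific peaks lay between 25.4 kb upstream and 19.5 kb downstream of the start, 6 of them within 5 kb. Maf and Actn1 were also fully lost with 11 peaks each, of which 5 and 10 lay inside the gene or within 100 kb of its start. In all, 206 fully lost genes had 6 or more wild-type peaks.

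At the other end stood the 10 genes with the highest kept share among those with 6 or more wild-type peaks inside the gene or within 100 kb of its start. Of such peaks Zc3h12a, an RNase that degrades inflammatory mRNAs (chromosome 4, 125118414 to 125127881), kept 5 of 6 and had 3 mutant-specific ones. Spdl1, a mitotic spindle protein, kept 9 of 11, and Il1rl1, the interleukin-33 receptor, kept 7 of 10. Klf6, a zinc finger transcription factor, kept 6 of 8 and had no mutant-specific peak. Osmr, the oncostatin M receptor, kept 4 of 6, as did Art3, G630071F17Rik and 1700045H11Rik. Vmp1, an autophagy protein, kept 7 of 11 and Rbpj, the DNA-binding partner of Notch, 5 of 8. Over all assigned peaks, however far, Klf6 kept 11 of 17, Vmp1 8 of 14, 1700045H11Rik 4 of 7 and Rbpj 5 of 10. These genes were named by their kept share, so the values describe them and test nothing.

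Most of the gained genes had a single new peak, and 5 of the 10 with the most were on the interferon-response list. Of the 342 gained genes 265 had 1 mutant-specific peak and 29 had 3 or more. A930037H05Rik (20 peaks), Gm4951 (9), Parp14 (9), Igfbp5 (8) and Samd9l (7) had the most, followed by Gbp9, Hspbap1, Iigp1, Mx1 and Slfn9 with 5 each. Parp14 (chromosome 16, 35832878 to 35871382) encodes an ADP-ribosyltransferase, Mx1 an antiviral GTPase, Gbp9 a guanylate-binding protein and Samd9l an antiviral factor. Igfbp5, which binds insulin-like growth factors, is not an interferon gene by its known role. Of the 20 peaks at A930037H05Rik, 13 lay in the body of Rnf213, an interferon-inducible ubiquitin ligase, when genes were taken from the RefSeq gene table. The same holds for the 10 mutant-specific peaks that the authors gave to Mir1932. With genes so taken, 23 peaks of the mutant only and 3 of wild type only fell to Rnf213, which then counts as replaced and not as gained.

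Among wild-type-bound genes 12.3% had at least 1 mutant-specific peak, and some had more new than old ones. Tnc, which encodes the matrix protein tenascin-C (chromosome 4, 63959785 to 64047015), had 22 peaks in wild type only, 13 shared and 15 in the mutant only. In the same order Prl2c3, a proliferin, had 15, 3 and 14. Mx2, the other antiviral Mx GTPase (chromosome 16, 97536081 to 97560901), had 2 wild-type-specific peaks, 1 of them 0.557 kb upstream of the start and the other 26.2 kb downstream. Its 12 mutant-specific peaks all lay inside the gene, from 6.6 to 24.2 kb after the start, so the genotypes had no site in common. Ifih1, a sensor of viral RNA, had 1 shared and 11 mutant-specific peaks, and Tor3a, an interferon-responsive ATPase, 1 and 9. Gbp2, a guanylate-binding protein, had 2 wild-type-specific and 9 mutant-specific peaks. Fstl1, a follistatin-like glycoprotein, had 8 shared peaks between 6 of wild type only and 9 of the mutant only. With genes from the RefSeq gene table, Fstl1 had 3 shared, 3 wild-type-specific and 9 mutant-specific peaks. Ifih1 then had 10 mutant-specific peaks only and counts as gained, whereas the numbers of Mx2 and Gbp2 stayed the same. Gm21119 (43 wild-type-specific, 18 shared, 12 mutant-specific) spans 19729576 to 20640703 on chromosome 8, so its count gathers a long stretch.

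**Figure D2:**
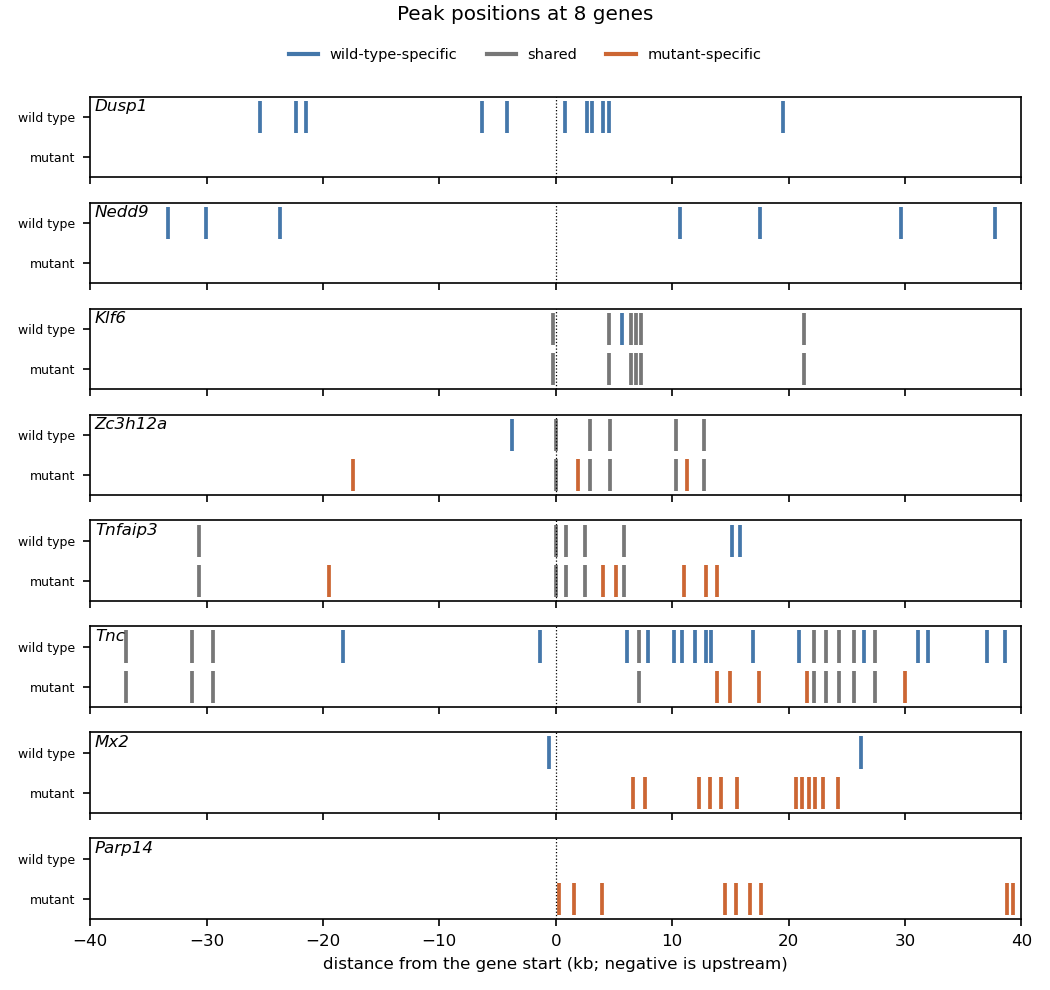
Peak positions at 8 genes within 40 kb of the gene start, as distance from the start in kb (negative is upstream), with wild-type peaks in the upper and mutant peaks in the lower row of each panel. Shared peaks are grey and appear in both. Dusp1 (11 peaks) and Nedd9 (7 of its 15 drawn) have wild-type-specific peaks only, Klf6 and Zc3h12a mostly shared ones, and Mx2 (12 of 14) and Parp14 (all 9) mutant-specific ones.

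Classic GR targets split across all classes. Of 45 listed targets 33 had a wild-type peak, and 18 of these (54.5%, against 65.6% of all wild-type-bound genes) were fully lost. They kept 21 of 132 wild-type peaks (15.9%, interval 10.1 to 23.3%), beside 15.7% over all genes. Without any mutant peak were Zbtb16, a zinc finger repressor (7 wild-type-specific peaks), Metrnl, a secreted cytokine (6), Tsc22d3, the gene of GILZ (5), and Crispld2, a secreted glycoprotein (5). Fkbp5, a cochaperone that restrains GR, kept 1 of 16 and Sgk1, a kinase of ion transport, 1 of 12. Cdkn1a, a cell cycle inhibitor, had 3 shared and 4 mutant-specific peaks, and the transcription factors Cebpb and Cebpd and the stress gene Gadd45a also had shared but no wild-type-specific peaks. Of the 52 mutant peaks at listed targets 31 were mutant-specific (59.6%, beside 38.2% over all genes), with 7 at Errfi1 and 6 at Tnfaip3. Replaced were 3 targets, including Cyr61 (7 wild-type-specific and 3 mutant-specific peaks). Gained were 3: Mt2 with 2 peaks and Pdk4 and Acsl1 with 1 each. The median wild-type peak number of the bound targets was 2, as over all wild-type-bound genes.

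Chaperones of the receptor, its coregulators and nuclear receptor genes were fully lost about as often as all wild-type-bound genes (65.6%). Of 14 chaperone genes with a wild-type peak 9 were fully lost (64.3%), among them Hsp90aa1 with 3 wild-type-specific peaks. It encodes an isoform of Hsp90, which holds GR ready for hormone. The isoform gene Hsp90ab1 was partly kept, with 1 wild-type-specific and 1 shared peak. Hspa8, the constitutive Hsc70, was replaced, with 1 wild-type-specific and 4 mutant-specific peaks. Among coregulators 7 of 10 were fully lost (70%), including Ncoa3 and Nrip1 with 4 wild-type-specific peaks each, and none had a mutant-specific peak. Of 24 nuclear receptor genes 16 (66.7%) were fully lost, including the estrogen receptor Esr1 (6 peaks), the adipogenic Pparg (3) and all of Nr4a1, Nr4a2 and Nr4a3. Kept shares were 12.5%, 12% and 12.3% in these lists, with intervals (4.19 to 26.8%, 2.55 to 31.2% and 6.08 to 21.5%) that include the 15.7% of all wild-type peaks. Without chromosomes 10 to 14 the nuclear receptor genes kept 18.8%.

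Of 13 MAP kinase phosphatase and Sprouty genes with a wild-type peak 8 were fully lost (61.5%, near the 65.6% of all wild-type-bound genes), with Dusp10 (6 peaks), Spry4 (5) and Dusp5 (2) besides Dusp1. Dusp6, which acts on ERK, kept 5 of 14 wild-type peaks and Spry2, an inhibitor of receptor tyrosine kinase signalling, 3 of 9. The list kept 11 of 62 wild-type peaks (17.7%, interval 9.2 to 29.5%, and 6.9% without chromosomes 10 to 14), and 1 of its 12 mutant peaks was mutant-specific, at Spred1 (8.33%, beside 38.2%). Of 12 clock genes 7 were fully lost (58.3%, beside 65.6%), among them the repressors Nr1d1 (4 peaks) and Cry1 and the activator Arntl. Bhlhe40 and Nfil3 kept 3 of 6 peaks each and Per1 1 of 2. Clock genes kept 9 of 38 wild-type peaks (23.7%, interval 11.4 to 40.2%, beside 15.7%), and 0 of their 9 mutant peaks were mutant-specific, beside 38.2% over all genes.

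Krüppel-like factors kept 26 of 80 wild-type peaks (32.5%, interval 22.4 to 43.9%, beside 15.7% over all genes), and Klf6 gave 42.3% of those kept. Klf4 kept 4 of 17, Klf2 3 of 5 and Klf3 3 of 5, the last with 3 mutant-specific peaks. Klf9 and Klf15, both GR targets, were fully lost with 2 and 1 peaks, and Klf13 with 7. In the AP-1 family Maf lost all 11 wild-type peaks and Fosl1, a Fos protein, all 3. Jun kept 2 of 11, Fos 2 of 4, and Junb, Jund and Batf kept all of their 1, 1 and 2.

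Inflammatory genes of the NF-kB pathway were fully lost in 7 of 26 cases (26.9%, beside 65.6% of all wild-type-bound genes). The bound genes had a median of 3 wild-type peaks, and of all genes with 3 such peaks 55.4% were fully lost. The pathway genes kept 33 of 95 wild-type peaks (34.7%, interval 25.3 to 45.2%, beside 15.7% over all genes). Ribosomal and housekeeping genes kept 28.3% (16.8 to 42.3%) and the fibroblast markers 40% (27 to 54.1%), so a high kept share was not particular to this list. Members with shared peaks included inhibitors of the pathway: Tnfaip3, a ubiquitin editor (chromosome 10, 19000910 to 19015410), had 5 shared peaks besides 4 of wild type only and 6 of the mutant only. Nfkbia, the inhibitor IkB-alpha, had 2 shared, 4 wild-type-specific and 1 mutant-specific, and the nuclear IkB protein Nfkbiz had 4, 5 and 5. Of other inhibitors, Tnip1 was fully lost with 2 peaks and Nfkbie gained with 1. Of the subunits, Relb kept its only peak, Nfkb1 1 of 7 and Rel 1 of 2, and Rela had 1 wild-type-specific and 1 mutant-specific peak. Vcam1, an adhesion molecule, had 4 shared, 3 wild-type-specific and 8 mutant-specific peaks, and Sod2, a mitochondrial superoxide dismutase, had 1, 0 and 5. On the sensing side Tlr4, the LPS receptor chain, was fully lost with 5 peaks and Irak3, an inhibitor of Toll-like receptor signalling, with 4, whereas the adaptor Myd88 and the kinase Ripk2 were gained with 2 and 4 peaks.

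Cytokines and their receptors kept 36 of 110 wild-type peaks (32.7%, interval 24.1 to 42.3%, beside 15.7% over all genes), and Csf1 gave 25% of those kept. Csf1, the macrophage growth factor (chromosome 3, 107741048 to 107760469), had 9 shared peaks, 12 of wild type only and 5 of the mutant only. Il6 had 3 shared, 3 wild-type-specific and 4 mutant-specific peaks, and Lif, a cytokine of the same family, 5, 6 and 0. Receptors of interleukin-1 (Il1r1, 7 peaks), interleukin-6 (Il6ra, 4) and interferon-gamma (Ifngr1 and Ifngr2, 2 each) were fully lost, as was Tnfrsf11b, a decoy receptor (5). Chemokines kept 10 of 51 peaks (19.6%, interval 9.82 to 33.1%, beside 15.7%), and 9 of 16 were fully lost (56.2%, beside 65.6%). Cxcl12, a homing chemokine of stromal cells, lost 8 peaks, Ccl11 4 and Ccl2, which recruits monocytes, 3. Ccl20 kept 3 of 7 and Ccl5 2 of 6.

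Interferon-response genes had mostly mutant-specific peaks. Of 53 listed genes 26 had a wild-type peak and 38 a mutant peak, and 125 of the 140 mutant peaks (89.3%) were mutant-specific, beside 38.2% over all genes. They kept 15 of 48 wild-type peaks (31.2%, interval 18.7 to 46.3%, beside 15.7%). Of the 38 mutant-bound genes 20 were gained, beside 10.7% over all mutant-bound genes, and 7 of the 26 wild-type-bound genes were replaced, beside 5.69%. Gained genes included Parp14 (9), Samd9l (7), Mx1 (5), Iigp1 (5), and the transcription factors Irf7 (3) and Stat2 (2). Replaced genes included Bst2, the tetherin of enveloped viruses (1 wild-type-specific and 4 mutant-specific peaks). Binding in wild type only was seen at 8 of the 26 wild-type-bound genes (30.8%, interval 14.3 to 51.8%, beside 65.6% of all wild-type-bound genes). Among them were Isg15, a ubiquitin-like modifier (3), Ifnb1, interferon-beta itself (2), and Oas3, an RNA-sensing synthetase (2). Ifit2 (3 shared), Irf1 and Usp18 (1 shared each) kept all wild-type peaks and had 2, 2 and 4 mutant-specific ones. The list had few wild-type peaks per bound gene, with a median of 1.5. Of all genes with 1 and with 2 wild-type peaks 81.6% and 69.5% were fully lost.

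Antigen presentation genes also had mostly mutant-specific peaks, on smaller numbers. Of 16 listed genes 6 had 1 wild-type peak each and 11 had a mutant peak. Gained were 8 of these 11, beside 10.7% over all mutant-bound genes. Of the 21 mutant peaks 19 (90.5%) were mutant-specific, beside 38.2% over all genes. The class I gene H2-K1 had 4, H2-Q4 3, the peptide transporters Tap1 and Tap2 2 each and the immunoproteasome subunit Psmb8 2, all gained. Fully lost were 3 of the 6 wild-type-bound genes (50%, beside 65.6% of all wild-type-bound genes). These were B2m, the class I light chain, H2-T23 and Psme1, with 1 wild-type-specific peak each. In the JAK and STAT list Jak1 lost 4 peaks, Socs3 kept 4 of 10 and gave 66.7% of the kept peaks of the list, and Socs1 was replaced. Several of these genes lie in clusters, so a peak between neighbours is counted for whichever gene the annotation gave it.

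Matrix genes had many peaks per gene and were mostly partly kept. Of 31 matrix and matricellular genes with a wild-type peak 20 were partly kept and 7 fully lost (22.6%). Of all wild-type-bound genes 21.5% were partly kept and 65.6% fully lost, and of those with 4 to 5 wild-type peaks 42.5% were fully lost. The matrix genes had a median of 5 wild-type peaks. They kept 48 of 207 peaks (23.2%, interval 17.6 to 29.5%, beside 15.7% over all genes), of which Tnc gave 27.1%. Fbn1, the fibrillin of elastic fibres, kept 5 of 14, Thbs2, a thrombospondin, 4 of 11 and Lox, which crosslinks collagen, 1 of 18. Lamc1, a laminin chain, lost 10 peaks and Ctgf, a connective tissue growth factor, 8. Among collagens, with a median of 6 wild-type peaks, 12 of 21 were partly kept and 8 fully lost (38.1%). Of all genes with 6 to 10 wild-type peaks 26.7% were fully lost. Collagens kept 25 of 141 peaks (17.7%, interval 11.8 to 25.1%, which includes the 15.7% over all genes). Col3a1 kept 5 of 12 and Col1a2 3 of 6 with 3 mutant-specific peaks, whereas Col5a2 kept none of 13 and Col6a2 and Col12a1 lost 7 each. Metalloproteases and their inhibitors kept 10 of 67 (14.9%), and Adamts12 lost 6.

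Of 217 wild-type peaks at 29 integrin and focal adhesion genes 23 were shared (10.6%, interval 6.84 to 15.5%, beside 15.7% of all wild-type peaks). This interval lies under the overall share. With sites within 1 kb taken as the same, with peaks limited to 100 kb of the start and without chromosomes 10 to 14 the share was 14.7%, 10.8% and 12.4%, each with an interval that includes the overall share under the same setting (18.9%, 15.7% and 14.5%). Tns3, a tensin, kept 2 of 33, Itga5, the fibronectin receptor chain, 1 of 14, and Cd44, the hyaluronan receptor, 4 of 22 with 5 mutant-specific peaks. Actn1 lost 11 and Tns1 9. Wnt pathway genes kept 5 of 64 (7.81%, interval 2.59 to 17.3%), and 13 of 18 were fully lost (72.2%, beside 65.6%), with Dkk2, a Wnt antagonist, losing 10 and the receptor Ror1 7. YAP and TEAD genes kept 9 of 77 (11.7%, interval 5.49 to 21%, and 19.5% with sites within 1 kb taken as the same). Of these genes 5 of 15 were replaced, beside 5.69% of all wild-type-bound genes, including Cyr61, a matricellular YAP target (7 wild-type-specific and 3 mutant-specific), and Wwtr1, the coactivator TAZ (6 and 1).

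Actin and contractile genes kept 25 of 115 (21.7%, interval 14.6 to 30.4%, which includes the 15.7% of all wild-type peaks). Acta2, the smooth muscle actin of myofibroblasts, kept 4 of 5, Cald1, which binds actin and myosin, 5 of 19, and Mkl1, a cofactor of SRF, lost 10. TGF-beta pathway genes kept 34 of 124 (27.4%, interval 19.8 to 36.2%, beside 15.7% over all genes), with Fstl1 giving 23.5% of these. Id3, an inhibitor of helix-loop-helix factors, kept 4 of 7, Smad3 3 of 7 and Tgfbr3 4 of 12, whereas Bmper kept 1 of 18. Growth factors and receptors kept 18 of 134 (13.4%). Met, the receptor of hepatocyte growth factor, lost 10, Vegfc 9 and Pdgfc 8, and Egfr kept 1 of 12.

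Transcription factors of fibroblasts had the most wild-type peaks per bound gene, a median of 7, and kept 37 of 244 (15.2%, interval 10.9 to 20.3%). Foxp1 kept 4 of 31, Hmga2 2 of 24, Runx1 3 of 22 and Nfib 5 of 12. Osr1 lost 10 and Sox11 7, and Zeb2, a repressor of epithelial genes, had 10 wild-type-specific and 4 mutant-specific peaks with none shared. Adipogenesis and lipid genes kept 5 of 32 (15.6%, interval 5.28 to 32.8%, and 26.3% without chromosomes 10 to 14) and fuel metabolism genes 6 of 56 (10.7%, interval 4.03 to 21.9%), with Pdk4 and Acsl1 gained. Cell cycle genes kept 17 of 61 (27.9%, and 18.5% without chromosomes 10 to 14), of which the antiproliferative gene Btg1 gave 41.2%. Myc had 1 wild-type-specific and 4 mutant-specific peaks. The comparison list of ribosomal and housekeeping genes kept 15 of 53 (28.3%, interval 16.8 to 42.3%), above the 15.7% of all wild-type peaks. With peaks limited to 100 kb and without chromosomes 10 to 14 it was 27.3% (15 to 42.8%) and 23.5% (10.7 to 41.2%), with intervals that include the overall share.

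**Figure D3:**
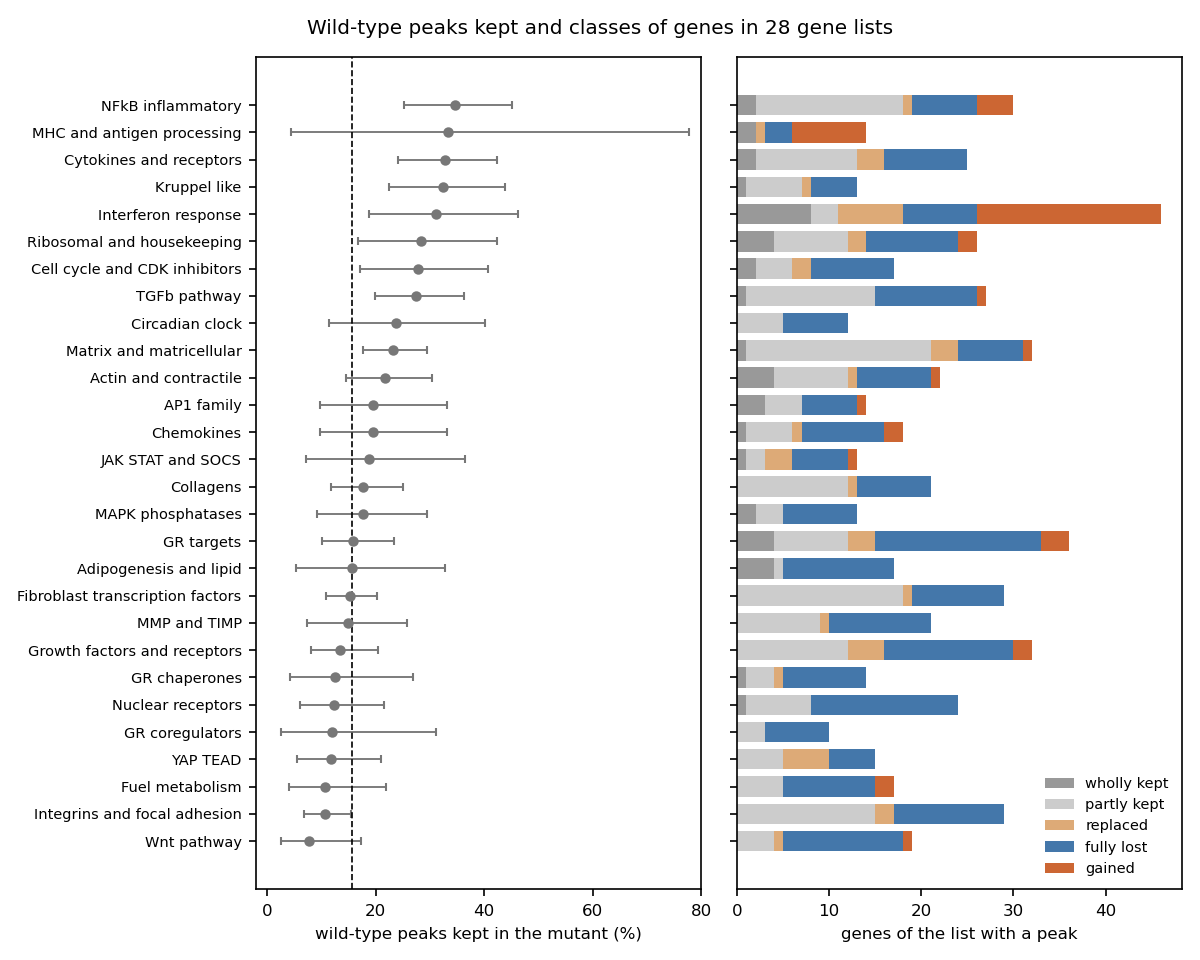
Left, percent of wild-type peaks kept in each of 28 gene lists with exact 95% intervals; the dashed line marks the 15.7% of all wild-type peaks. Right, number of genes of each list with a peak, by class. NF-kB pathway genes have the highest kept share (34.7%) and Wnt pathway genes the lowest (7.81%), and gained genes are most numerous in the interferon list (20).

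The kept share differed with place. Within 1 kb of a gene start 505 of 2347 wild-type peaks were shared (21.5%, interval 19.9 to 23.2%), against 14.6% (13.5 to 15.7%) from 5 to 20 kb and 14.9% (14.1 to 15.8%) beyond 100 kb. Peaks just inside the gene (21.5%) and just upstream (21%) did not differ beyond their intervals. Local density went with the kept share as well: peaks with no other wild-type peak within 10 kb were shared in 12.5% of cases (11.9 to 13.1%), those with 1 in 17.1% and those with 5 or more in 27.7% (23.9 to 31.9%). Mutant-specific peaks made up 40.4% of the mutant peaks within 1 kb of a start, 51.8% (interval 47.6 to 55.9%) from 1 to 5 kb and 33.3% beyond 100 kb. By chromosome the kept share was highest on chromosomes 13 (19.6%), 12 (19.3%), 10 (19.2%) and 11 (17.3%) and lowest on X (10.3%, interval 5.91 to 16.5%), apart from Y with 6 peaks and none kept. The same chromosomes 10 to 13 had the most mutant peaks per wild-type peak, 0.302 to 0.329, and chromosome 10 had the most wild-type peaks (1716). Chromosome 14 had 16.2% and 0.269. Shares without chromosomes 10 to 14 are therefore given too, and the cause of this unevenness was not tested.

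**Figure D4:**
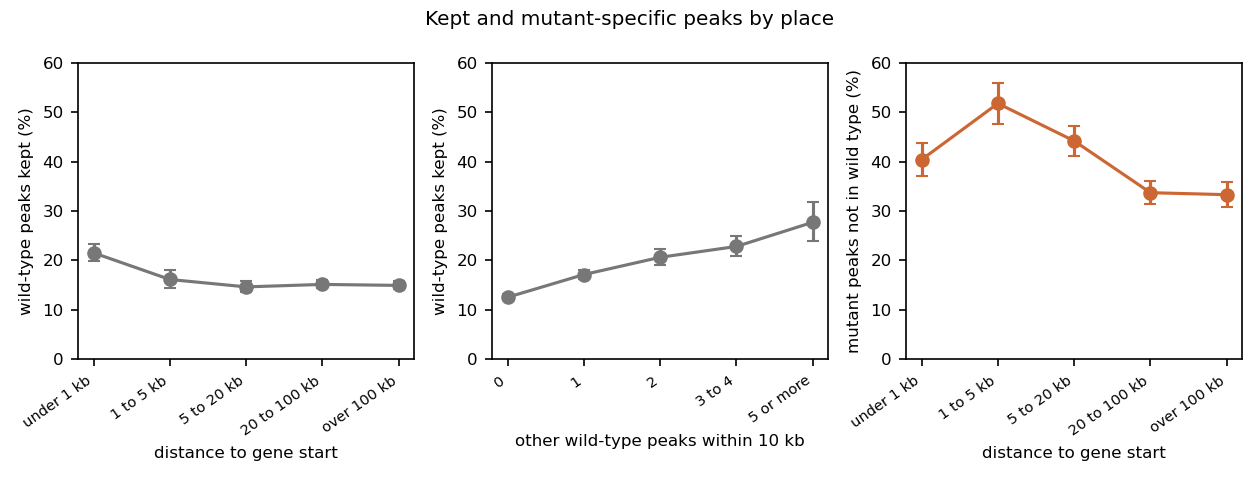
Left and centre, percent of wild-type peaks kept by distance to the gene start and by number of other wild-type peaks within 10 kb; right, percent of mutant peaks that are mutant-specific by distance. Bars are exact 95% intervals. The kept share is 21.5% under 1 kb and 12.5% to 27.7% from sparse to dense surroundings, and the mutant-specific share is highest, 51.8%, from 1 to 5 kb.

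Most mutant-specific peaks lay more than 1 kb from any wild-type peak. Of the 2187 mutant-specific peaks 4 overlapped a wild-type-specific peak, 19.4% (interval 17.7 to 21.1%) lay within 1 kb of a wild-type peak and 44.5% within 5 kb, with a median gap of 7544 bp. The median gap of a wild-type-specific peak to the nearest mutant peak was 106979 bp, and 51.4% had none within 100 kb. The mutant list is also the shorter. At replaced genes the smallest gap between an old and a new peak had a median of 7558 bp, was under 1 kb at 97 genes (20.6%) and over 100 kb at 41. Of the gained genes 84 (24.6%) had a wild-type peak of another gene within 20 kb and 93 (27.2%) had none within 100 kb. Of the fully lost genes 294 (5.4%) had a mutant peak of another gene within 20 kb, and 3899 (71.6%) had none within 100 kb.

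Joining peaks of either genotype less than 5 kb apart gave 18528 stretches, of which 14105 held wild-type peaks only, 3495 both and 928 mutant peaks only. In 383 of the mixed stretches no peak was shared. Of 122 stretches with 5 or more wild-type peaks 95 (77.9%) held a mutant peak, against 14.8% of those with 1. A stretch with more wild-type peaks has more chances to hold a shared one, and these shares are not adjusted for that. The largest stretch without a mutant peak lay at Capn2, a calpain protease (chromosome 1, 182502034 to 182519666), with 9 wild-type peaks. The stretch at Dusp1 (chromosome 17, 26503663 to 26514977) held 7, and that at Hmga2 (chromosome 10, 120353960 to 120358654) 6 in 4.7 kb. Without a wild-type peak the largest stretches lay at A930037H05Rik in the Rnf213 region (10 mutant peaks), Gm4951 (9), Ifih1 (8, chromosome 2, 62640329 to 62645703), Igfbp5 (8) and Zfp981 (8).

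Within gene bodies of at least 5 kb, mutant-specific peaks lay early. The part nearest the start, when each gene was cut into 5 equal parts, held 36.4% of them (343 of 943, interval 33.3 to 39.5%), against 28.2% (27.2 to 29.1%) of wild-type-specific and 28.5% (26.2 to 30.9%) of shared peaks. Peaks at gained genes lay within 1 kb of the start in 31.9% of cases, against 10.9% of the other mutant-specific peaks, and inside the gene in 58.9% against 48.2%. At interferon-response genes 14 of 125 mutant-specific peaks (11.2%, beside 15.7% over all genes) lay within 1 kb of the start. Inside the gene lay 82 (65.6%, beside 50.7%), and the median distance of the 125 was 11.5 kb, beside 20.7 kb. Of their shared peaks 7 of 15 (46.7%, beside 14.3% over all genes) lay within 1 kb. Of their wild-type-specific peaks 8 of 33 did (24.2%, beside 9.72%).

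Promoter motifs were counted in 300-base RefSeq promoters (250 bases before to 50 after the start, either strand) that a peak overlapped, beside all 32851 promoters in the table. None of the letter patterns contains another. The interferon element was present in 9.24% (interval 5.47 to 14.4%) of 184 promoters with a mutant-specific peak, 6.38% (4.04 to 9.5%) of 345 with a shared peak and 2.78% (1.88 to 3.94%) of 1081 with a wild-type-specific peak, against 3.44% of all promoters. Counting matches inside the peak itself, the shares were 2.17% (0.595 to 5.47%), 2.61% (1.2 to 4.89%) and 1.39% (0.779 to 2.28%), with intervals that overlap. The NF-kB letters were present in 29.9%, 31.6% and 27.3% of the respective promoters and in 20.7% of all, and these shares did not differ between the classes beyond their intervals. The AP-1 letters TGANTCA stood in 7.07% (interval 3.82 to 11.8%), 9.28% (6.43 to 12.8%) and 12.9% (10.9 to 15%), against 7.81% of all. Inside the peak itself they stood in 3.8% (1.54 to 7.68%), 3.77% (2.02 to 6.36%) and 8.14% (6.58 to 9.93%). The AP-1 intervals of the mutant-specific and wild-type-specific classes overlapped in both counts. Those of the shared and wild-type-specific classes overlapped over the whole promoter but not inside the peak. The glucocorticoid response element was found in 1 mutant-specific, 1 shared and 19 wild-type-specific promoters (0.543%, 0.29% and 1.76%, against 1.84% of all).

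Inside the peak itself the glucocorticoid response element was found in 15 of 1081 wild-type-specific promoters (1.39%, interval 0.779 to 2.28%). It was found in 1 of 345 shared (0.29%, 0.00734 to 1.6%) and 0 of 184 mutant-specific promoters, where 0 allows up to 1.98%. These intervals overlap. Of the in-peak matches to the interferon element, in 4 mutant-specific, 9 shared and 15 wild-type-specific promoters, the mutant-specific ones lay at Apol9b, Tgtp1 and Gm12185, and shared ones included Ifi203, Ifi205 and Ifi211, members of the interferon-inducible p200 family, and Saa3, an acute-phase protein. Wild-type-specific matches included Oas3, Ifit3b and Serpinb9 besides Socs1 and Irgm1. A match of letters does not show binding to them, and sites away from promoters were not searched.

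**Figure D5:**
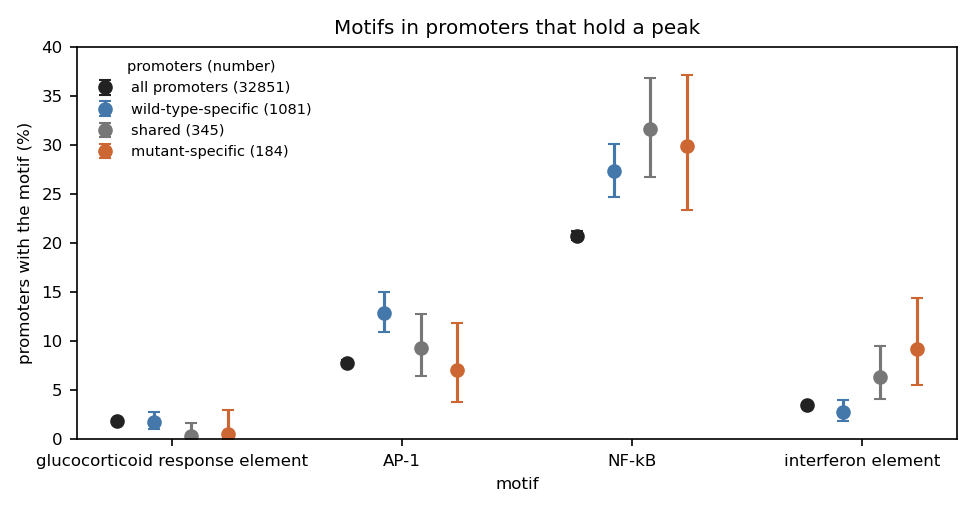
Percent of promoters that hold each motif, for all promoters and for promoters under peaks of each class; numbers of promoters are in the key and bars are exact 95% intervals. The interferon element goes from 2.78% (wild-type-specific) to 9.24% (mutant-specific) over the whole promoter, though not inside the peak (1.39% and 2.17%, overlapping intervals). The AP-1 letters go from 12.9% to 7.07%, and inside the peak from 8.14% to 3.8%, with overlapping intervals in both cases.

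Peak lists of 2 wild-type libraries that received Dex alone held 412 and 854 peaks. Lists of that size could overlap only a small part of the 24673 Dex+LPS peaks. They overlapped 0.877% and 2.41% of the shared Dex+LPS peaks, 0.306% and 0.485% of the wild-type-specific and 0.732% and 1.42% of the mutant-specific ones. In both libraries the wild-type-specific class had the lowest share, and the intervals of the shared and mutant-specific classes overlapped. Lists of 2 mutant libraries under Dex alone, with 53 and 60 peaks, overlapped 0 and 2 Dex+LPS peaks in all.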

How the data were processed

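GR ChIP-seq peaks of 3 wild-type and 4 mutant Dex+LPS libraries were analysed. The authors deposited peak positions with an assigned gene and a distance to its start, as 3 lists merged by genotype with knockout peaks removed, per the file names; the lists hold no count, score or p-value. BWA 0.7.13, Picard 1.119, MACS2 2.1.0 and mm10 are named in the submitters' processing notes; the sources used here do not give the merging rule. Every Dex+LPS peak was 200 bp wide, and 4 wild-type-specific peaks overlapped a mutant-specific one. Replicate depth is unknown.

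Genes were classed by the lists their peaks stood in, and 99.9% of 8636 gene identifiers matched the RefSeq table (GRCm38.p6). Shares have exact (Clopper-Pearson) 95% intervals, for counting error only. Gaps run from edge to edge, and overlap means at least 1 bp. Distances to the gene start used for bins, limits and medians ran from the nearest edge of the peak. The start was that of the authors' assigned gene, from its coordinates and strand. No test across samples or lists was run. Named genes were the 10 genes with the most peaks per class, the 10 with the highest kept share among those with at least 6 wild-type peaks and up to 4 per list, counting peaks inside the gene or within 100 kb of its start. Further list members, promoters and stretches were chosen after their values were seen. Members and lists (28 functional, 7 of markers) were chosen with earlier results of these data known. Classes, gaps and overlaps were tested on simulated peaks with known answers. Alternatives were other rules for the same site, other distance limits, other gene assignment and fewer chromosomes. Computation used scipy 1.17.1, pandas 2.3.3 and numpy 2.4.6 under Python 3.11.15, and figures matplotlib 3.10.9.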

Additional observations from a re-analysis of the deposited data

How the results depend on the processing

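No paired analysis was possible because the libraries were merged by genotype and the lists hold no value per library; for the same reason no library could be left out, and with no score per peak no stricter threshold could be set. Of 28 other values of the 4 main shares, 8 lay within the main 95% interval. The share of wild-type peaks kept (15.7%) was 17.1% with sites within 500 bp taken as the same, 18.9% within 1 kb, 14.5% without chromosomes 10 to 14, 17% with peaks within 20 kb of a start and 19.9% with peaks under 5 kb apart joined. The share of mutant peaks found in wild type (61.8%) was 65.8% and 69.2% with sites within 500 bp and 1 kb, 55.4% within 20 kb of a start and 79% joined. The fully lost share (65.6%) was 69% without chromosomes 10 to 14, 68% with peaks inside the gene or within 100 kb of its start, 74.3% within 20 kb, 64.4% joined, 69.3% with genes from the RefSeq table and 48.5% among genes with at least 2 peaks. The gained share (10.7%) was 12.2% within 100 kb, 19.5% within 20 kb, 9.5% joined, 12.7% with genes from the RefSeq table and 3.14% among genes with at least 2 peaks. Each of these settings changes which peaks or genes are counted; no other cause was tested. The RefSeq assignment gave 67.3% of all peaks the authors' gene.

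For the 28 lists, 165 of 168 values lay within the list's main interval. The others were kept shares: without chromosomes 10 to 14, which hold Socs3, Socs2 and Dusp6, JAK and STAT genes had 0% (0 of 17 peaks, main 18.8%) and MAP kinase phosphatases 6.9% (main 17.7%), and within 1 kb matrix genes had 31.4% (main 23.2%). The fully lost share of fibroblast transcription factors, within its interval, was 20% without chromosomes 10 to 14 (main 34.5%). Depth is unknown, so a peak just under the threshold in either genotype cannot be told from an absent site.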
